A study of Homo sapiens with 6 samples.

Results

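The genes described are 59 genes of DNA replication: those that license origins, build and run the replication fork, polymerise DNA, supply deoxynucleotides or guard the fork, together with E2F transcription factors. They were taken by symbol from a written list, and all 59 were found among the 24462 gene symbols of the count tables, each on a single line. Transcripts were counted by RNA sequencing in LS 174T cells, an established line from a human colorectal adenocarcinoma that makes mucins and often stands in for goblet cells. One group was left untreated (control, n = 3 libraries) and the other received 4 mM propionate for 4 h (n = 3 libraries). Propionate is one of the fatty acids of short chain released in the gut when bacteria ferment fibre. Both groups were the same cell line grown in serum-containing medium, so a single tumour line stands for goblet cells here. Whether replicate libraries stem from separate cultures is not stated in the labels, so p-values measure only how far these libraries differ, which can be technical.

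Before a cell copies its DNA, the origin recognition complex (ORC) marks origins, and CDC6 and CDT1 load the ring-shaped MCM helicase onto them, a step called licensing. In S phase the kinase CDC7 with its activator DBF4, together with CDC45 and the GINS complex, turns the loaded rings into running helicases, and the polymerases, the sliding clamp PCNA and its loader RFC follow. Many of these genes are switched on at the end of G1 by E2F1, E2F2 and E2F3, and E2F6, E2F7 and E2F8 act as repressors on E2F sites. Renewing tissues such as the colon crypt depend on this programme, and colorectal tumour lines run it steadily.

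Library totals ran from 11603288 to 12746170 reads. The test covered 13605 genes, among them all 59 replication genes. The lowest count of any of the 59 in a library was 55 reads. Levels are CPM, the reads of a gene per 1000000 reads of its library after TMM factors that correct for composition, and only differences within a gene are compared. Means are given ± SD over 3 libraries. All 12 listed markers of colon epithelium and goblet cells were detected. Their summed level was 4961 to 6086 CPM in control and 6067 to 6837 CPM with propionate, and their part in the results below was not tested. Singly, 4 of the 12 (KRT18, KRT19, CEACAM5 and MUC2) were higher and 1 (CDX2) lower in the edgeR test given below. Over all tested genes 17.2% were higher and 17.0% lower. Of 12 markers of fibroblasts, endothelium and leukocytes, 6 had at most 3 reads in any library. Those 6 include 3 with no read (VWF, CDH5 and CD3E). The sum of these 12 was 7.75 to 10.3 CPM in control and 11.6 to 16.6 CPM with propionate. Of the 3 that could be tested, COL1A1 and CD14 were higher and ACTA2 did not pass.

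With propionate 29 of the 59 genes were lower and none was higher (edgeR, adjusted p under 0.05 by the Benjamini-Hochberg method over all tested genes). Over all tested genes 17.0% were lower and 17.2% were higher. None of the 59 was higher by DESeq2, by limma-voom or by edgeR's unadjusted p under 0.05 either, and 34 were lower by the unadjusted p. By that unadjusted p, 2966 of all 13605 tested genes were lower and 2967 were higher. The falls were mostly small: 8 of the 29 reached 1.5-fold (CDC7, GINS3, UHRF1, RRM2, TYMS, E2F3, E2F7 and E2F8). The median log2 fold change of the 59 was -0.32, beside -0.0069 over all tested genes, and the range ran from -1.26 (E2F8) to 0.13 (TK1).

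In 34 of the 59 genes every propionate library lay below every control library, and in none did every one lie above. Over all tested genes those shares were 22.7% and 22.4%. Summed over the 59 genes, the level was 5827, 5548 and 5718 CPM in the control libraries and 4679.7, 4471 and 4543 CPM with propionate, so the groups did not overlap in the sum. In bulk RNA, fewer cells in S phase and less transcript in each cell cannot be told apart.

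Calls over all tested genes followed the GC content of the transcript: in 5 bins of like size, 22.4% were lower in the bin of lowest GC content and 8.84% in the bin of highest. Of the 59 genes, 2 of 7, 12 of 24, 6 of 12, 8 of 12 and 1 of 4 were lower in these 5 bins from low to high GC content. After a correction for GC content fitted together with the replicate block (the library number as a term), 34 of the 59 were lower and none higher, while over all tested genes 25.5% were lower and 18.7% higher. The block alone also gave 34 of the 59, with 22.6% of all tested genes lower and 21.9% higher. All 29 falls passed in both fits, and the 5 further genes differed: CDT1, MCM4, RFC1, RFC3 and TIPIN with the block, and CDT1, MCM4, CHAF1A, POLE and TK1 with the GC correction as well. That correction moved the estimate by over 1.5 times in 2 of the 29 falls (MCM7 and E2F1) and in 20 of the 30 genes that did not pass, and it turned the sign in 3 of those 30 (RFC2, CHAF1A and TK1).

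**Figure D1:**
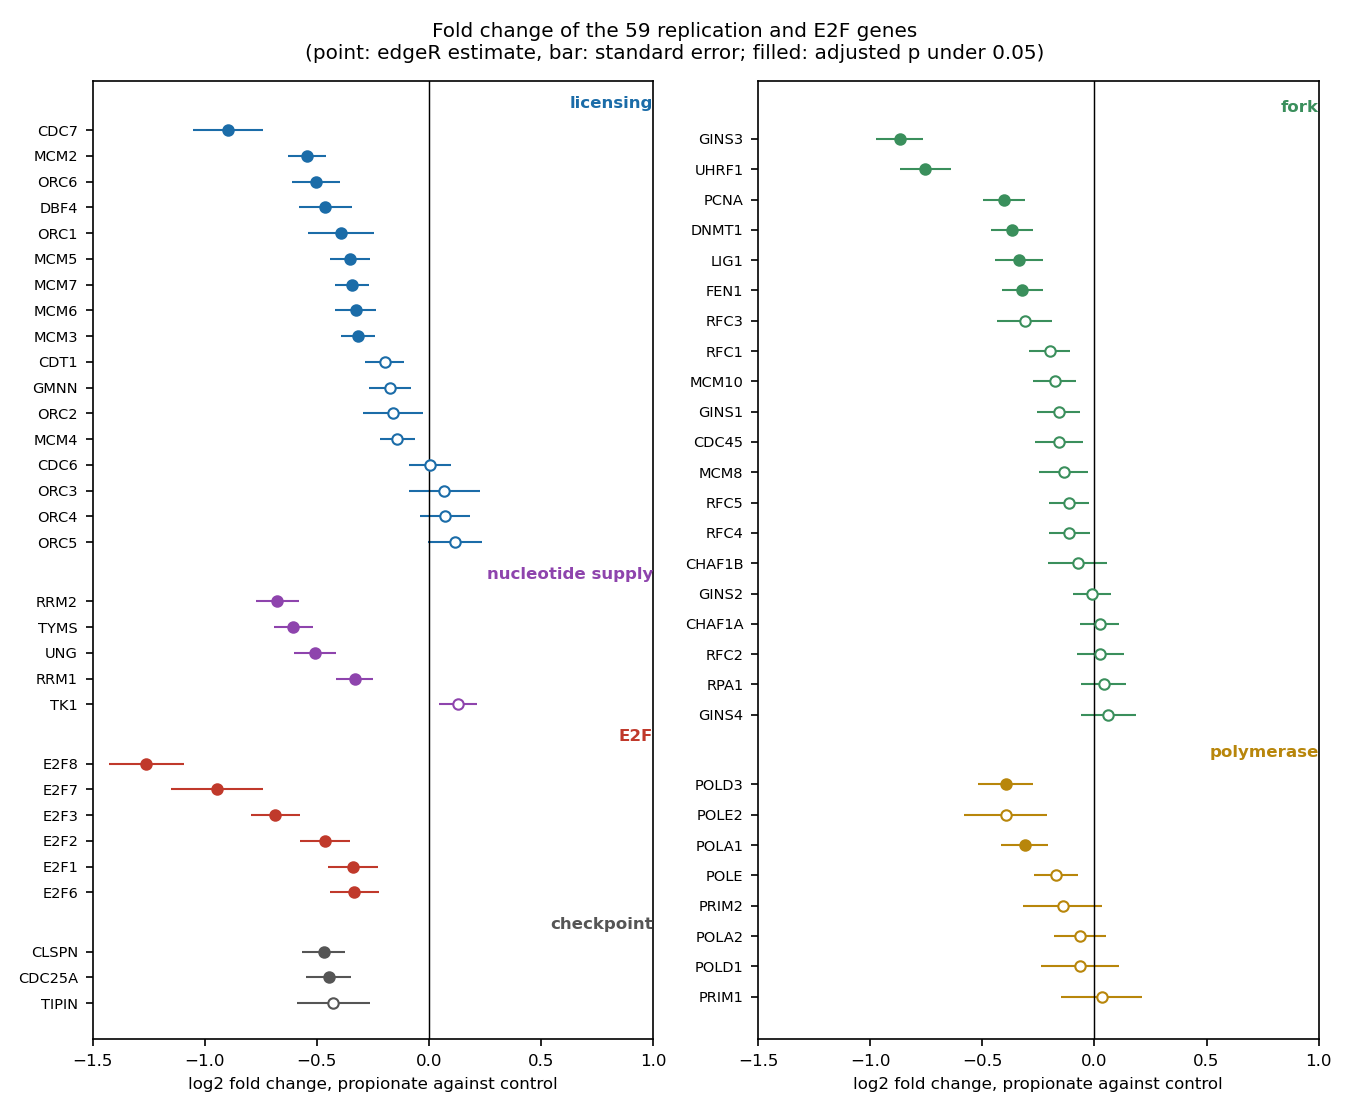
Log2 fold change of each of the 59 genes, propionate against control, grouped by role. Points are edgeR estimates with standard error bars from 3 libraries a group. Filled points passed the adjusted p, all of them left of zero, and E2F8 lies farthest left at -1.26.

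Promoter sequence was examined because many of the 59 genes fell together. RefSeq promoter windows (GRCh38.p14) of 300 bases, from 250 before to 50 after the annotated start, were found for 54 of the 59 genes. The upstream 250 bases are shown for the 3 genes with the smallest p that had an entry (GINS3, RRM2 and TYMS), and for the 3 fallen genes of smallest p with an E2F-like match before the start (CDC25A, MCM7 and E2F2), a choice made after the matches were seen. Sequences run 5′ to 3′ along the gene, and capitals mark matches on either strand to TTTCGCGC or TTTGGCGC (E2F-like), TTTGAA or TTCGAA (like the cell cycle homology region, CHR) and CCAAT, each motif counted on its own.
GINS3, chr16:58392221-58392470, plus strand: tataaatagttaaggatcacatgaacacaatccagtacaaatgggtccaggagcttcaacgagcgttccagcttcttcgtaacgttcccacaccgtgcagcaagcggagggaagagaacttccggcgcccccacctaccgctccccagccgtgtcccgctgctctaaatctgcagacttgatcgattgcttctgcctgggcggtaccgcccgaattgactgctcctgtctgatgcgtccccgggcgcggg
RRM2, chr2:10122489-10122738, plus strand: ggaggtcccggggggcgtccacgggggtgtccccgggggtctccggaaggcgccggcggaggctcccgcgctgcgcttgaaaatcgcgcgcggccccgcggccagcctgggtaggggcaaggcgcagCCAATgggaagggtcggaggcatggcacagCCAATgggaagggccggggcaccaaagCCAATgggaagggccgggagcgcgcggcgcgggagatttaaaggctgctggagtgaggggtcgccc
TYMS, chr18:657403-657652, plus strand: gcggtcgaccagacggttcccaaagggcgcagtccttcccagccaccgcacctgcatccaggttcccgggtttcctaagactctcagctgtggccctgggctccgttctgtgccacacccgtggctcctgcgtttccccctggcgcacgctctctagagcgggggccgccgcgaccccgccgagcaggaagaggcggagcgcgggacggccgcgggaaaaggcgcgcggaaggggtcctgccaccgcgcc
CDC25A, chr3:48188418-48188667, minus strand: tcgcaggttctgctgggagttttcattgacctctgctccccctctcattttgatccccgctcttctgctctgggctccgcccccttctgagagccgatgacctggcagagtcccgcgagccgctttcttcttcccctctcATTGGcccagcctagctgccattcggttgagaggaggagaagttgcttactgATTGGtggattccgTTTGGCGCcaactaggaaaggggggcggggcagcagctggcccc
MCM7, chr7:100101398-100101647, minus strand: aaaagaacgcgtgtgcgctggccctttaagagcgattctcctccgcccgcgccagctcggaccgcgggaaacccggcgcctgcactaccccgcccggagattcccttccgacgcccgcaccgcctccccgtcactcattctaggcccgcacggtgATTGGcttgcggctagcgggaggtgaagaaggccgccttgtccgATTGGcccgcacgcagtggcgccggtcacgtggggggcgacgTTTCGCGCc
E2F2, chr1:23531234-23531483, minus strand: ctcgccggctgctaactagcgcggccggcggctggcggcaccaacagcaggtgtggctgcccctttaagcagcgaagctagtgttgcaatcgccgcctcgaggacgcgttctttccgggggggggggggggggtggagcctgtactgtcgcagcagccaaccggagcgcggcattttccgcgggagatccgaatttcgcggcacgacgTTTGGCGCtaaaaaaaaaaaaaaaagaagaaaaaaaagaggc

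RRM2 carried 3 CCAAT boxes, starting 123, 93 and 66 bases before the annotated start. The E2F-like letters began 44 bases before the start in CDC25A, 9 before it in MCM7 and 42 before it in E2F2. Neither GINS3, whose fall had the smallest p of the 59, nor TYMS held any of the searched letters in this window. Only the forms listed above were searched, so other forms of an E2F site may stand in these windows.

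E2F-like letters stood in 15 of the 54 windows (27.8%), beside 2.04% of the 9930 tested genes with a window and 1.15% of all 35116 windows. Among the 54, they stood in 9 of 26 genes that fell (34.6%) and in 6 of 28 that did not pass (21.4%). Over all tested genes called lower the share was 3.5%. CCAAT stood in 57.4% of the 54 windows and in 37.1% of those of tested genes. CHR-like letters stood in 4 of the 54 (7.41%), beside 11.1% of tested genes. All 4 were genes that fell (MCM6, DBF4, RRM1 and E2F3). They made up 15.4% of the 26 that fell, beside 16.5% of all tested genes called lower. These shares are descriptions: a match is not a bound site.

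**Figure D2:**
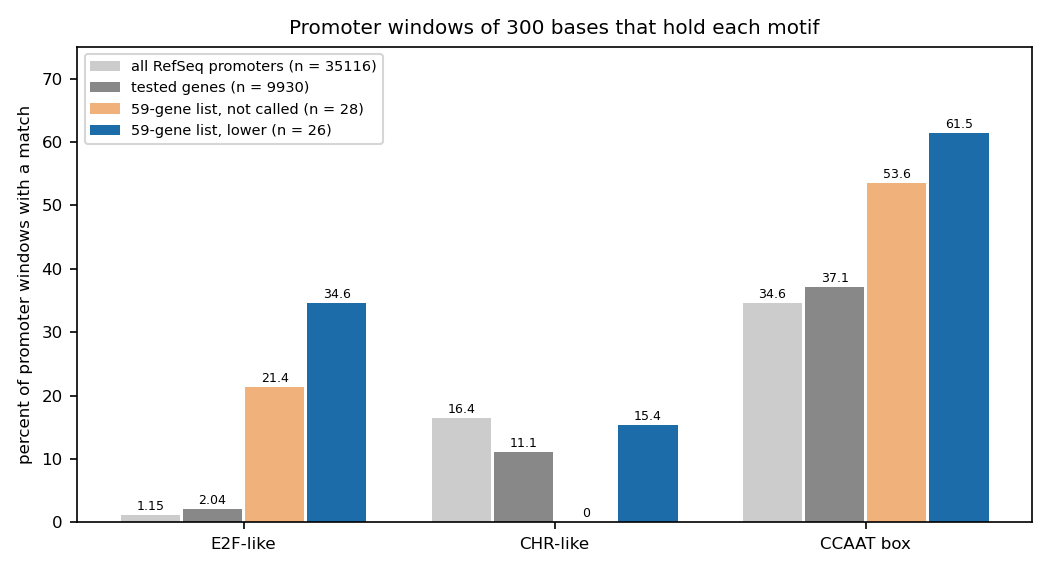
Percent of promoter windows of 300 bases with at least 1 match on either strand to each motif, for all RefSeq windows, tested genes and the listed genes that did or did not fall. The E2F-like share is 2.04% over tested genes, 34.6% over the listed genes that fell and 21.4% over those that did not pass.

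Among the licensing genes nearly every helicase subunit fell and most genes of the origin recognition complex did not pass. The difference between these complexes was not tested. Of 17 licensing genes 9 were lower (52.9%), beside 17.0% of all tested genes. Their median log2 fold change was -0.32, beside -0.0069 over all tested genes. MCM2, a subunit of the replicative helicase, stood at 203, 228 and 211 CPM in the control libraries and 158, 148 and 136 CPM with propionate. Every propionate library was below every control, a 1.46-fold fall (log2 fold change -0.54 with SE 0.0844, adjusted p = 6.11e-05 by edgeR). MCM3, MCM5, MCM6 and MCM7, the helicase's other called subunits, fell 1.25-fold, 1.28-fold, 1.25-fold and 1.27-fold (edgeR adjusted p = 0.00325, 0.00505, 0.00924 and 0.00182), each with groups that did not overlap. MCM3 was at 252, 248 and 264 CPM in the control libraries and 203, 204 and 207 CPM with propionate. MCM5 was at 184, 201 and 172 CPM in the control libraries and 151, 156 and 129 CPM with propionate. MCM6 was at 90.8, 77.9 and 83.1 CPM in the control libraries and 70.5, 63.7 and 66.5 CPM with propionate. These subunits join the same ring as MCM2 and MCM7. MCM7 was at 479, 508 and 469 CPM in the control libraries and 394, 391 and 364 CPM with propionate, and its log2 fold change of -0.34 became -0.52 after the GC correction with the block. MCM4 was at 176, 184 and 181 CPM in the control libraries and 170.0, 157 and 165 CPM with propionate, and this remaining subunit also had no overlap but did not pass (log2 fold change -0.14 with SE 0.0783, adjusted p = 0.176 by edgeR). With the replicate number as a block MCM4 passed (log2 fold change -0.14, edgeR adjusted p = 0.0398). The MCM6 call was lost without control library 1 (edgeR adjusted p = 0.0601). MCM2 and MCM7 share 45 and 277 exonic bases with TPRA1 and AP4M1 on the opposite strand, and no source says whether reads were counted by strand, so reads there cannot be assigned with certainty. TPRA1 was higher (log2 fold change 0.32) and AP4M1 did not pass (0.16).

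The kinase that fires licensed origins fell in both parts. CDC7, its catalytic subunit, was at 16.4, 19.5 and 22.1 CPM in the control libraries and 9.93, 9.48 and 11.8 CPM with propionate, a 1.86-fold fall (log2 fold change -0.90 with SE 0.156, adjusted p = 0.000185 by edgeR). DBF4, its activator, was at 32.6, 31.1 and 31.1 CPM in the control libraries and 23.3, 20.3 and 25.2 CPM with propionate, a 1.38-fold fall (log2 fold change -0.46 with SE 0.117, adjusted p = 0.00455 by edgeR). The groups did not overlap for either gene. DBF4 shares 121 exonic bases with SLC25A40 on the opposite strand, which did not pass (log2 fold change -0.13), so here too reads cannot be assigned with certainty.

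Among the 6 origin recognition genes ORC6 and ORC1 fell. ORC6, the smallest subunit, was at 49.8, 41.8 and 51.9 CPM in the control libraries and 34.3, 33.5 and 33.5 CPM with propionate, with no overlap and a 1.42-fold fall (log2 fold change -0.50 with SE 0.106, adjusted p = 0.00114 by edgeR). ORC1, the subunit whose abundance varies with the cell cycle, was at 31.6, 27.2 and 24.9 CPM in the control libraries and 21.8, 25.4 and 16.4 CPM with propionate, where propionate library 2 reached above the lowest control (1.31-fold lower, edgeR adjusted p = 0.0443). The ORC1 call was lost without control library 1 (edgeR adjusted p = 0.168), control library 2 (edgeR adjusted p = 0.0742), propionate library 1 (edgeR adjusted p = 0.0811) or propionate library 3 (edgeR adjusted p = 0.213), and also with upper-quartile factors, with library totals and by DESeq2 (adjusted p between 0.053 and 0.0605). ORC2, ORC3, ORC4 and ORC5, which stay on chromatin through more of the cycle, had log2 fold changes of -0.16, 0.069, 0.072 and 0.12 and overlapping groups. Their 95% intervals were -0.44 to 0.12, -0.26 to 0.40, -0.16 to 0.31 and -0.13 to 0.37, so falls of the size of ORC6 lie outside each of them. With the GC correction and the block their log2 fold changes were -0.060, 0.18, 0.18 and 0.19, and none passed.

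Neither loading factor passed without the replicate block. CDC6, the ATPase that recruits the helicase, was at 77.3, 71.9 and 70.4 CPM in the control libraries and 81.3, 72.0 and 66.9 CPM with propionate (log2 fold change 0.0043 with SE 0.0945, adjusted p = 0.979 by edgeR, 95% interval -0.19 to 0.20). CDT1, the helicase chaperone, was at 84.1, 89.1 and 88.4 CPM in the control libraries and 74.6, 72.7 and 80.7 CPM with propionate. Its groups did not overlap, it missed the threshold (log2 fold change -0.20 with SE 0.0864, adjusted p = 0.0837 by edgeR) and it passed with the replicate block (log2 fold change -0.20, edgeR adjusted p = 0.0148). After the GC correction with the block its log2 fold change was -0.52 (edgeR adjusted p = 1.07e-06). The GC content of its transcript was 64.9%. Geminin (GMNN), the inhibitor of CDT1, was at 57.5 ± 0.387 CPM untreated against 51.0 ± 2.43 CPM treated (log2 fold change -0.17 with SE 0.0921, adjusted p = 0.157 by edgeR).

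At the fork, single components fell while most of their partners did not pass: 6 of 20 genes were lower (30%). Over all tested genes 17.0% were lower. GINS3, a subunit of the GINS tetramer, was at 46.4, 41.2 and 46.0 CPM in the control libraries and 24.1, 25.7 and 23.3 CPM with propionate, with every propionate library below every control and a 1.83-fold fall (log2 fold change -0.87 with SE 0.107, adjusted p = 4.62e-06 by edgeR). GINS1, GINS2 and GINS4, the other subunits of the same tetramer, had log2 fold changes of -0.16, -0.010 and 0.061, and their 95% intervals (-0.36 to 0.042, -0.19 to 0.17 and -0.19 to 0.32) did not reach the value of GINS3. GINS2, for example, was at 91.2, 93.0 and 93.0 CPM in the control libraries and 88.8, 97.3 and 89.2 CPM with propionate. The difference between GINS genes was not tested directly. CDC45, which completes the active helicase, was at 36.5 ± 1.09 CPM untreated against 32.7 ± 3.24 CPM treated (log2 fold change -0.16 with SE 0.107, adjusted p = 0.282 by edgeR). MCM10, a factor of helicase activation, was at 60.3 ± 4.64 CPM untreated against 53.3 ± 0.770 CPM treated (log2 fold change -0.18 with SE 0.0942, adjusted p = 0.156 by edgeR), with groups that did not overlap. MCM8, a relative of the helicase that works in recombination, was at 35.5 ± 2.85 CPM untreated against 32.3 ± 2.30 CPM treated (log2 fold change -0.14 with SE 0.109, adjusted p = 0.359 by edgeR).

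The sliding clamp fell and its loader did not pass, and the difference between them was not tested. PCNA, the clamp that tethers polymerases to DNA, was at 175, 146 and 184 CPM in the control libraries and 137, 120.0 and 125 CPM with propionate, without overlap and 1.32-fold lower (log2 fold change -0.40 with SE 0.0938, adjusted p = 0.00251 by edgeR). None of the 5 RFC genes passed with edgeR, DESeq2 or limma-voom, and 2 were lower at edgeR's unadjusted p under 0.05. RFC1, the large subunit, had a log2 fold change of -0.20 (edgeR adjusted p = 0.104) and RFC3 one of -0.31 (edgeR adjusted p = 0.058). Both passed with the replicate block (edgeR adjusted p = 0.0115 for RFC1 and 0.0179 for RFC3) and without control library 2 (edgeR adjusted p = 0.0361 and 0.00909). RFC3 also passed with no filter beyond 1 read (edgeR adjusted p = 0.0316). Neither passed after the GC correction with the block: the log2 fold change was -0.10 for RFC1 (edgeR adjusted p = 0.166) and -0.19 for RFC3 (edgeR adjusted p = 0.13). RFC2, RFC4 and RFC5 had log2 fold changes of 0.025, -0.11 and -0.11, and that of RFC2 turned to -0.071 after the GC correction with the block. For RFC4 and RFC5 every propionate library lay below every control, while the groups of RFC2 overlapped. RPA1, which coats single-stranded DNA, was at 92.9 ± 6.17 CPM untreated against 95.6 ± 13.1 CPM treated (log2 fold change 0.041 with SE 0.1, adjusted p = 0.79 by edgeR).

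Genes that finish and mark the new strands made up the other falls at the fork: FEN1, LIG1, UHRF1 and DNMT1. FEN1, the flap nuclease of Okazaki fragment processing, was at 272, 219.8 and 266 CPM in the control libraries and 207, 188 and 212 CPM with propionate (1.25-fold lower, log2 fold change -0.32 with SE 0.0908, adjusted p = 0.00979 by edgeR). LIG1, the ligase that seals those fragments, was at 83.5, 76.5 and 64.0 CPM in the control libraries and 64.5, 59.6 and 53.4 CPM with propionate (1.26-fold lower, log2 fold change -0.33 with SE 0.107, adjusted p = 0.0203 by edgeR), and its groups overlapped. The FEN1 call was lost without control library 1 (edgeR adjusted p = 0.0529) or propionate library 2 (edgeR adjusted p = 0.0553), and the LIG1 call without control library 1 (edgeR adjusted p = 0.116), control library 2 (edgeR adjusted p = 0.0624) or propionate library 3 (edgeR adjusted p = 0.0906). FEN1 shares 166 exonic bases with TMEM258 on the opposite strand, which did not pass (log2 fold change -0.072).

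UHRF1, which reads half-methylated DNA behind the fork, was at 45.5, 36.0 and 45.4 CPM in the control libraries and 24.4, 26.0 and 24.8 CPM with propionate, with no overlap and a 1.69-fold fall (log2 fold change -0.75 with SE 0.115, adjusted p = 4.90e-05 by edgeR). DNMT1, the maintenance methyltransferase that UHRF1 recruits, was at 474, 429.6 and 478 CPM in the control libraries and 329, 327 and 415 CPM with propionate, a 1.29-fold fall (log2 fold change -0.37 with SE 0.0929, adjusted p = 0.00455 by edgeR). For both genes all propionate libraries lay below all controls. CHAF1A and CHAF1B, subunits of the histone chaperone of new chromatin, had log2 fold changes of 0.023 and -0.075 with overlapping groups. After the GC correction with the block CHAF1A had a log2 fold change of -0.16 (edgeR adjusted p = 0.0497), so its direction depends on that correction.

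Of 8 polymerase and primase genes 2 fell (25%), beside 17.0% of all tested genes. No more than 1 came from any of the polymerase complexes, and differences between subunits were not tested. POLD3, an accessory subunit of polymerase delta, was at 35.9, 28.6 and 33.3 CPM in the control libraries and 26.2, 21.8 and 26.2 CPM with propionate, without overlap and 1.32-fold lower (log2 fold change -0.40 with SE 0.122, adjusted p = 0.0168 by edgeR). POLA1, the catalytic subunit of polymerase alpha, was at 51.2, 53.7 and 51.6 CPM in the control libraries and 39.9, 38.3 and 48.1 CPM with propionate, also without overlap and 1.24-fold lower (log2 fold change -0.31 with SE 0.105, adjusted p = 0.0267 by edgeR). The POLD3 call was lost without control library 1 (edgeR adjusted p = 0.0829) or propionate library 2 (edgeR adjusted p = 0.0876), and the POLA1 call without control library 2 (edgeR adjusted p = 0.0806), propionate library 1 (edgeR adjusted p = 0.0953) or propionate library 2 (edgeR adjusted p = 0.124). POLD1, POLA2, PRIM1 and PRIM2, the partners of these subunits in the delta and alpha-primase complexes, had log2 fold changes of -0.064, -0.064, 0.032 and -0.14. With the GC correction and the block these were -0.38, -0.18, 0.13 and -0.054, and none passed (edgeR adjusted p = 0.066 for POLD1). In the reported fit the 95% interval of POLD1 (-0.43 to 0.30) included the estimate of POLD3. Those of PRIM1 (-0.34 to 0.41) and PRIM2 (-0.51 to 0.22) included the estimate of POLA1. The interval of POLA2 (-0.305 to 0.18) ended just short of the POLA1 estimate (-0.311). POLE, the leading strand polymerase, was at 58.1 ± 5.79 CPM untreated against 51.5 ± 1.71 CPM treated (log2 fold change -0.17 with SE 0.0985, adjusted p = 0.189 by edgeR). It passed after the GC correction with the block (log2 fold change -0.33, edgeR adjusted p = 0.00235). POLE2, its second subunit, was at 10.8 ± 2.31 CPM untreated against 8.22 ± 0.418 CPM treated (log2 fold change -0.40 with SE 0.184, adjusted p = 0.106 by edgeR) and passed without control library 2 (edgeR adjusted p = 0.0353). PRIM1, PRIM2, POLD1 and POLE2 were read at low levels, and the standard errors of their log2 fold changes were between 0.174 and 0.184.

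Of 5 genes listed under deoxynucleotide supply 4 fell (80%), beside 17.0% of all tested genes. The group as listed includes UNG, which acts on DNA itself. RRM2, the regulated small subunit of ribonucleotide reductase, was at 444, 401 and 390.1 CPM in the control libraries and 293, 260.3 and 219 CPM with propionate, with no overlap and a 1.598-fold fall (log2 fold change -0.68 with SE 0.0963, adjusted p = 2.42e-05 by edgeR). RRM1, the large subunit of the same enzyme, was at 480.3, 408 and 473 CPM in the control libraries and 371, 344 and 369 CPM with propionate, again without overlap and with a 1.26-fold fall (log2 fold change -0.33 with SE 0.0823, adjusted p = 0.00414 by edgeR). The 95% intervals of the log2 fold changes were -0.88 to -0.47 for RRM2 and -0.50 to -0.16 for RRM1. TYMS, thymidylate synthase, was at 201, 200.4 and 229 CPM in the control libraries and 149, 126 and 140.0 CPM with propionate, a 1.52-fold fall (log2 fold change -0.61 with SE 0.0880, adjusted p = 2.97e-05 by edgeR). TYMS shares 967 exonic bases with ENOSF1 on the opposite strand, which also fell (log2 fold change -0.52, edgeR adjusted p = 0.000557), so the reads of this pair cannot be assigned with certainty. UNG, which removes uracil from DNA, was at 74.8, 77.9 and 72.6 CPM in the control libraries and 54.0, 56.4 and 47.8 CPM with propionate, with no overlap and a 1.42-fold fall (log2 fold change -0.51 with SE 0.0941, adjusted p = 0.000341 by edgeR).

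TK1, the salvage enzyme thymidine kinase, did not pass. It was at 112, 105 and 107 CPM in the control libraries and 127, 118 and 109 CPM with propionate, above its same-number control in each of 3 pairs but with overlapping groups (log2 fold change 0.13 with SE 0.0851, adjusted p = 0.263 by edgeR). After the GC correction with the block its log2 fold change was -0.15 (edgeR adjusted p = 0.043), so the direction of TK1 depends on that correction. Its transcript had a GC content of 62.8%, where the median of the 59 genes was 45.8% and that of all tested genes 48.9%.

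All 6 listed E2F genes fell, activators and repressors alike, beside 17.0% of all tested genes. E2F8, an atypical E2F that represses cell cycle genes, was at 18.3, 14.3 and 16.3 CPM in the control libraries and 7.68, 6.67 and 6.01 CPM with propionate. No propionate library came near the controls, and the 2.40-fold fall was the largest of the 59 genes (log2 fold change -1.26 with SE 0.168, adjusted p = 1.20e-05 by edgeR). E2F7, the other atypical E2F, was at 7.96, 11.1 and 9.75 CPM in the control libraries and 4.73, 4.42 and 5.84 CPM with propionate, also without overlap (1.93-fold lower, log2 fold change -0.94 with SE 0.205, adjusted p = 0.00139 by edgeR). E2F6, a repressor that works with Polycomb proteins, was at 41.6, 44.7 and 38.0 CPM in the control libraries and 35.4, 33.7 and 29.4 CPM with propionate and fell 1.26-fold (edgeR adjusted p = 0.0236).

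Of the activators, E2F3 was at 53.0, 49.98 and 47.7 CPM in the control libraries and 27.4, 31.3 and 34.9 CPM with propionate, without overlap and 1.61-fold lower (log2 fold change -0.69 with SE 0.109, adjusted p = 7.53e-05 by edgeR). E2F2 was at 70.7, 57.2 and 52.7 CPM in the control libraries and 45.3, 41.0 and 44.5 CPM with propionate (1.38-fold lower, log2 fold change -0.46 with SE 0.111, adjusted p = 0.00293 by edgeR), where the lowest control stayed above the highest propionate library. E2F1 was at 70.0, 61.9 and 51.6 CPM in the control libraries and 49.2, 52.2 and 43.7 CPM with propionate (1.26-fold lower, edgeR adjusted p = 0.0255), and its groups overlapped, propionate library 2 being above control library 3. The E2F1 call was lost without control library 1 (edgeR adjusted p = 0.155), control library 2 (edgeR adjusted p = 0.0651), propionate library 1 (edgeR adjusted p = 0.0552) or propionate library 3 (edgeR adjusted p = 0.105), and the E2F6 call without control library 1 (edgeR adjusted p = 0.0548), control library 2 (edgeR adjusted p = 0.102) or propionate library 3 (edgeR adjusted p = 0.107). The log2 fold changes of the 3 activators lay close together after the GC correction with the block, at -0.64 for E2F3, -0.64 for E2F2 and -0.61 for E2F1, and E2F1 passed there (edgeR adjusted p = 1.26e-06). E2F4 and E2F5, which act mainly as repressors in resting cells and are not among the 59, are named as the other E2F genes of the G1/S list and had log2 fold changes of -0.041 (edgeR adjusted p = 0.79) and 0.046 (edgeR adjusted p = 0.814). E2F4 passed after the GC correction with the block (log2 fold change -0.23, edgeR adjusted p = 0.0178).

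**Figure D3:**
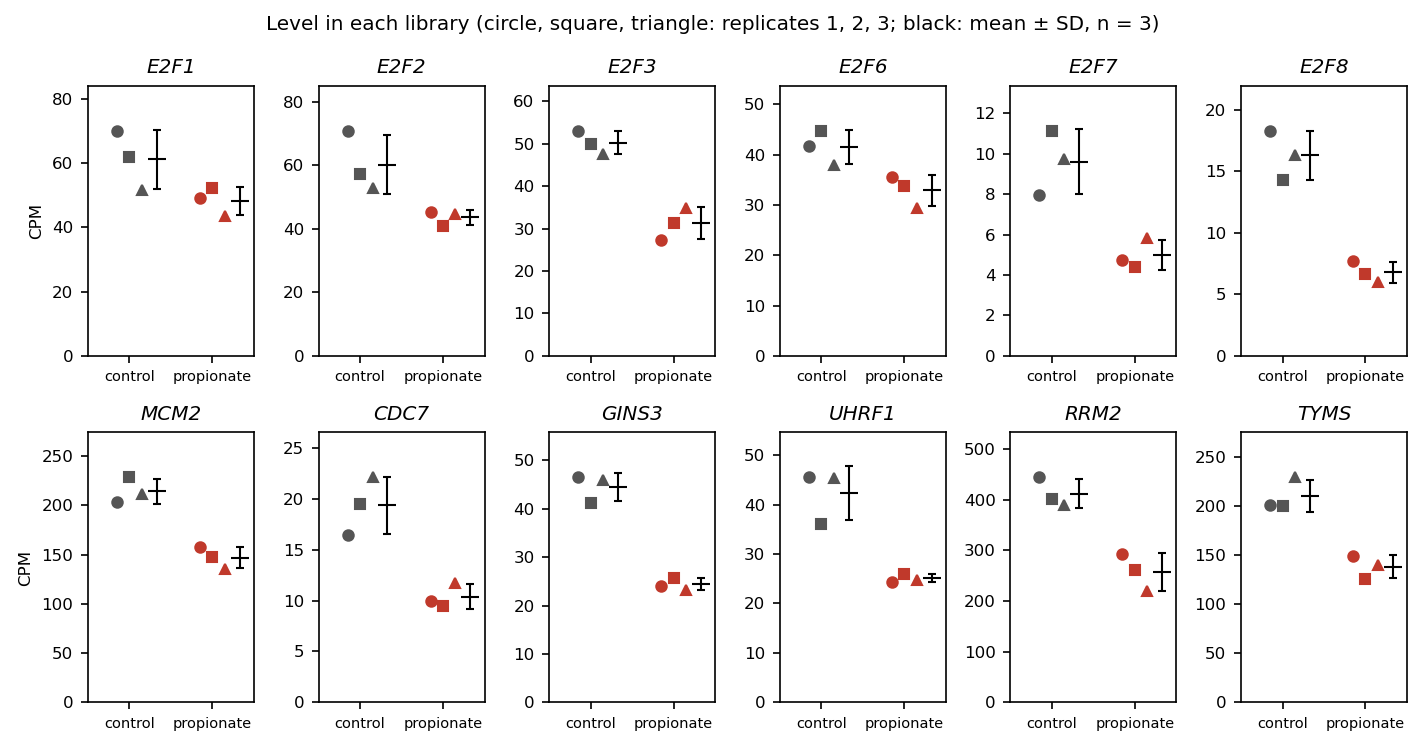
CPM in each library for the 6 E2F genes and for MCM2, CDC7, GINS3, UHRF1, RRM2 and TYMS, in control (grey) and with propionate (red), with the mean and SD of 3 libraries in black. E2F1 is the gene of the 12 whose groups overlap.

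Of 3 checkpoint genes 2 fell (66.7%), beside 17.0% of all tested genes. CLSPN encodes claspin, which passes the stalled-fork signal from ATR to CHEK1. It was at 148, 144 and 119.9 CPM in the control libraries and 106, 99.7 and 90.9 CPM with propionate, without overlap and 1.38-fold lower (log2 fold change -0.47 with SE 0.0949, adjusted p = 0.000766 by edgeR). CDC25A, the phosphatase that releases CDK2 and is destroyed when the checkpoint fires, was at 49.5, 44.4 and 48.7 CPM in the control libraries and 35.4, 34.5 and 34.6 CPM with propionate, again without overlap and 1.36-fold lower (log2 fold change -0.45 with SE 0.0990, adjusted p = 0.00165 by edgeR). TIPIN, a fork protection partner of TIMELESS, was at 13.6, 13.5 and 15.9 CPM in the control libraries and 12.8, 9.32 and 9.90 CPM with propionate. No propionate library of TIPIN reached a control library, yet its p lay at the threshold (log2 fold change -0.43 with SE 0.164, adjusted p = 0.0505 by edgeR). It passed with the replicate block (log2 fold change -0.43, edgeR adjusted p = 0.0205), with limma-voom (adjusted p = 0.047), with either other filter on low counts (edgeR adjusted p = 0.0432 and 0.0497) and without propionate library 1 (edgeR adjusted p = 0.0204). It did not pass after the GC correction with the block (edgeR adjusted p = 0.0668), by DESeq2, with other scaling factors, or without any of the other 5 libraries (edgeR adjusted p up to 0.18).

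Lists of related genes outside the 59 were tested in the same fit. Of 33 other replication genes 9 were lower (27.3%) and 3 higher (9.09%), beside 17.0% and 17.2% of all tested genes. Their median log2 fold change was -0.11. The falls with the smallest p were thymidylate kinase (DTYMK, 1.49-fold), TOPBP1, an activator of ATR and of origin firing (1.47-fold), the zinc finger gene ZNF367 (1.85-fold) and TIMELESS (1.37-fold). The helicase gene RECQL4 (1.38-fold), the alternative clamp loader gene CHTF18 (1.34-fold) and the histone chaperone gene ASF1B (1.25-fold) rose. After the GC correction with the block these 3 rises did not pass (edgeR adjusted p = 0.078 for RECQL4, 0.686 for CHTF18 and 0.0822 for ASF1B). Of 27 genes of the replication checkpoint and fork repair 11 were lower (40.7%) and 1 higher (3.7%), with a median of -0.14. CHEK1, the kinase that claspin activates, was at 27.5 ± 3.03 CPM untreated against 15.3 ± 0.669 CPM treated (log2 fold change -0.84 with SE 0.129, adjusted p = 5.16e-05 by edgeR), BRCA2 fell 1.62-fold, HUS1 1.73-fold and WEE1 1.38-fold, and ATRIP, the partner of ATR, rose 1.46-fold.

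Of 30 genes of G1/S control, 6 were lower (20.0%) and 7 higher (23.3%), beside 17.0% and 17.2% of all tested genes (median log2 fold change -0.042). Cyclin A2 (CCNA2) fell, being at 173 ± 9.17 CPM untreated against 96.9 ± 8.48 CPM treated (log2 fold change -0.84 with SE 0.0875, adjusted p = 7.60e-07 by edgeR), and the inhibitor genes CDKN2C (1.86-fold) and CDKN1B (1.38-fold) and the CDK subunit gene CKS1B (1.26-fold) fell too. The rises with the smallest p were the inhibitor CDKN1C (4.03-fold, 8.22 ± 0.690 CPM untreated against 33.2 ± 2.05 CPM treated), cyclin D3 (CCND3, 2.17-fold), CDKN2D (1.99-fold) and CDKN1A (1.66-fold). Among the 5 genes of cyclin-dependent kinase inhibitors on this list 3 were higher (CDKN1A, CDKN1C and CDKN2D) and 2 lower (CDKN1B and CDKN2C). Of 33 genes of G2 and mitosis, 27 were lower (81.8%) and 1 was higher (3.03%), CDC25B (1.22-fold), with a median of -0.59. AURKA (2.44-fold), UBE2C (2.06-fold), CCNB1 (1.82-fold) and NDC80 (2.10-fold) had the smallest p among the falls. The CDC25B rise did not pass after the GC correction with the block (edgeR adjusted p = 0.329) or without propionate library 3 (edgeR adjusted p = 0.0503). Whether these lists differ from the 59 genes was not tested.

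**Figure D4:**
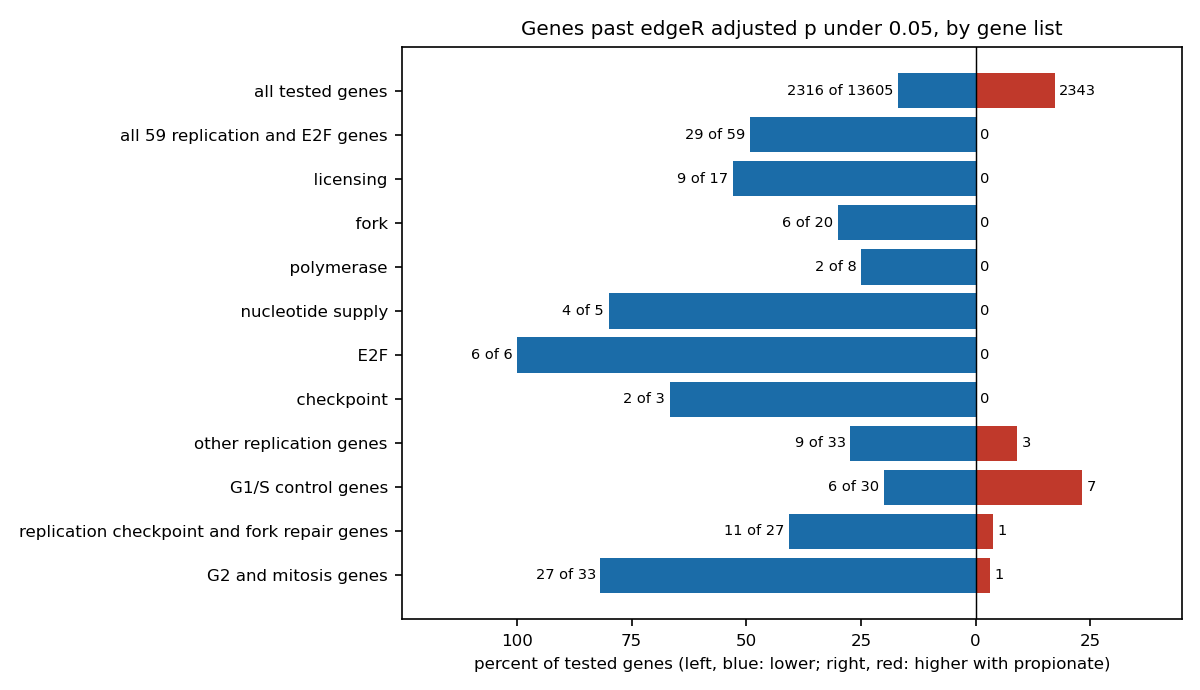
Percent of tested genes that were lower (blue, left) or higher (red, right) with propionate at an edgeR adjusted p under 0.05, for all tested genes, the 59 replication and E2F genes, their 6 roles and 4 related lists. The counts beside the bars show 29 of 59 lower and 0 higher, and 27 of 33 lower for G2 and mitosis genes.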

How the data were processed

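Libraries were made from total RNA with a Lexogen kit named Quant-Seq, per the labels' protocols. Where along a transcript its reads lie is not in the deposited tables. The submitters' processing notes name Bowtie2, edgeR, hg19 and GRCh37, with no version or role. For the counter, its strand setting and the annotation, nothing is stated in those sources. The deposited values are raw counts of reads, 1 table of gene symbols a library, and the counts of 286 symbols on several lines were summed. Groups came from the sample titles. Libraries of a group differed by more than sampling noise (chi-square per degree of freedom 6.31 to 9.36).

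The 6 libraries were fitted with edgeR 4.0.16 (R 4.3.3, quasi-likelihood F test, filterByExpr, TMM factors, prior count 0.125, both directions), with the Benjamini-Hochberg adjusted p taken over 13605 genes. Standard errors are the log2 fold change over the root of F. The procedure was tested on simulated data. The 59 genes and all lists were chosen with earlier results of these data known. All 59 may be named, and of each related list up to 4 genes per direction with the smallest p. Promoter windows are RefSeq's (GRCh38.p14). GC content came from 1 GENCODE 29 transcript per symbol (12722 tested genes, all 59 of the list), and exon overlaps from the same release.

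Titles give both groups the same 3 marks (none, 1 or 2 primes), read as replicate numbers. Same-number libraries deviated together from the means of their groups (r = 0.238, 0.393 and 0.44 over 9286 genes, each above 0.1), so the numbers may pair them. The reported fit has no pairing term, and the fit with the number as a block is an alternative. No label states a shared day. Alternatives were other scaling factors, filters, thresholds, DESeq2 1.42.0, limma-voom (limma 3.58.1), the replicate block, GC correction with the block, and leaving out each library. A count of 3 reads corresponds to 0.235 to 0.259 CPM.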

Additional observations from a re-analysis of the deposited data

How the results depend on the processing

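None of the 59 genes was higher under any of the 17 alternatives run. The number lower stayed between 22 and 29 when single libraries were left out, 22 without control library 1. Over all tested genes 13.5% to 14.4% were lower in those fits. The number of the 59 lower was 34 with the replicate block (3074 of all tested genes lower, 22.6%) and 34 after the GC correction with the block (3474, 25.5%), against 2316 of all tested genes in the reported fit. It was 28 or 29 with other scaling factors or by DESeq2 (15.3% to 16.6% of all tested genes lower). With other filters on low counts or by limma-voom it was 30 or 31 (12.5% to 17.3% of all tested genes lower). A threshold of 0.01 left 23 and a required 1.5-fold change left 8. Those thresholds also changed the counts over all tested genes: 1424 were lower at 0.01, and 968 were lower and 1345 higher with 1.5-fold required. The median log2 fold change of the 59 was -0.29 with upper-quartile factors, -0.30 with library totals, and between -0.32 and -0.26 with single libraries left out. After the GC correction with the block CHAF1A (log2 fold change -0.16) and TK1 (-0.15) passed on the other side of zero, and the cause was not tested. Besides CDT1, MCM4, RFC1, RFC3 and TIPIN, which passed with the block, the block changed no other call among the 59. Of the 29 falls, 21 passed under each of the 15 alternatives that kept the 0.05 threshold without a fold requirement. Among the genes that did not pass, POLD1, POLE2, PRIM1 and PRIM2 had the largest SE, which holds counting error and the spread between libraries together.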

Other observations

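The E2F-like letters were also examined in promoters of tested genes outside the list. Of 188 such genes with TTTCGCGC or TTTGGCGC in the RefSeq window, 53 were lower with propionate (28.2%) and 17 were higher (9.04%). Of the 9688 tested genes outside the list whose window lacked these letters, 17.5% were lower and 17.2% higher. Among the 54 replication and E2F genes with a window, 9 of 15 with the letters fell and 17 of 39 without them. The 5 listed genes without a window (MCM4, MCM5, GINS4, POLD3 and E2F8) were not searched. These counts are a description, and a match is not a bound site. Promoters without these letters may hold other forms of an E2F site, which were not searched.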
